A study of Danio rerio with 12 samples.

Results

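Whole zebrafish larvae given iron oxide nanoparticles in a dextran coat (Dx-IONP) were compared with untreated control larvae across the transcriptome. The members of this comparison were all genes with at least 1 CPM, a read count scaled to library size, in either library, which gave 16597 of the 19983 genes in the table. The other 3386 genes were below that level in both libraries, 581 of them with no read in either. Each gene was placed in tissue marker lists and functional families by its name, so that the account covers groups of genes and not only the largest differences.

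Both groups came from Tg(fli:EGFP) fish, whose reporter uses the promoter of an endothelial transcription factor to make a green fluorescent protein in vessels, and were collected at 120 hours after fertilization. Each group was 1 pool of 20 embryos, made into 1 poly(A) RNA library and sequenced on 4 lanes, and the series has 1 further such library, labelled IC, whose values are given beside some genes. The sources used here give neither dose, duration nor vehicle. The library names of control, IC and Dx-IONP share the same leading library number. A second number in these names, whose meaning is not given, is adjoining for control and IC and distant for Dx-IONP. Whether the Dx-IONP library was handled apart was not stated. The 4 lanes are repeat runs of 1 library, so each condition had n = 1, no difference has a replicate check, and no test between conditions was possible.

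Iron oxide nanoparticles are small magnetic crystals used as contrast agents and iron carriers, and a dextran coat is a sugar polymer that keeps them in suspension. At this age a zebrafish larva has hatched and swims, its retina and brain carry working synapses, its liver, pancreas and gut are formed, and its skin still has an outer periderm. RNA from whole larvae mixes all of these tissues, so that fewer cells of a type and less RNA per cell cannot be told apart.

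The summed libraries held 84043873 reads for control and 55381504 for Dx-IONP, with 20606371 to 21329490 and 13569110 to 14063966 per lane. CPM values were scaled by trimmed-mean (TMM) library sizes, and a gene was counted as higher or lower in Dx-IONP where its levels were at least 2-fold apart and where the exact 95% counting interval of its ratio excluded 1. Intervals in parentheses after a log2 fold are of this kind and cover counting error only. Of 16597 genes, 3495 (21.1%) were higher and 3987 (24.0%) were lower by this rule, 45.1% in all, and 9115 were neither. The median log2 fold of Dx-IONP over control was 0.03, with quartiles at -0.94 and 0.83. The lower tail was the longer, with the 5th percentile at -3.30 and the 95th at 2.25. At 8-fold or more, 389 genes were higher and 1031 were lower. Scaled to total reads alone, every log2 fold was lower by 0.37, the median gene stood at -0.35, and 2292 genes were higher against 5241 lower. A list median between 0 and 0.37 therefore stands below 0 on total reads, and lists in that range are given below without a direction.

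The shares of higher and lower genes differed between classes of mean level. Among the 5952 genes between 1 and 10 CPM, 31.1% were lower and 19.8% higher. Among the 8476 genes between 10 and 100 CPM, the shares were 18.5% lower and 20.9% higher. Among the 1528 genes between 100 and 1000 CPM, 16.9% were lower and 24.9% higher. Among the 103 genes at 1000 CPM or more, 8.74% were lower and 29.1% higher. The 538 genes with a mean below 1 CPM passed the filter only through their higher library, so their shares (55.6% lower, 24.9% higher) were largely set by it and are not comparable with the others. On total reads fewer genes were higher and more were lower, as the split over all genes shows.

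**Figure D1:**
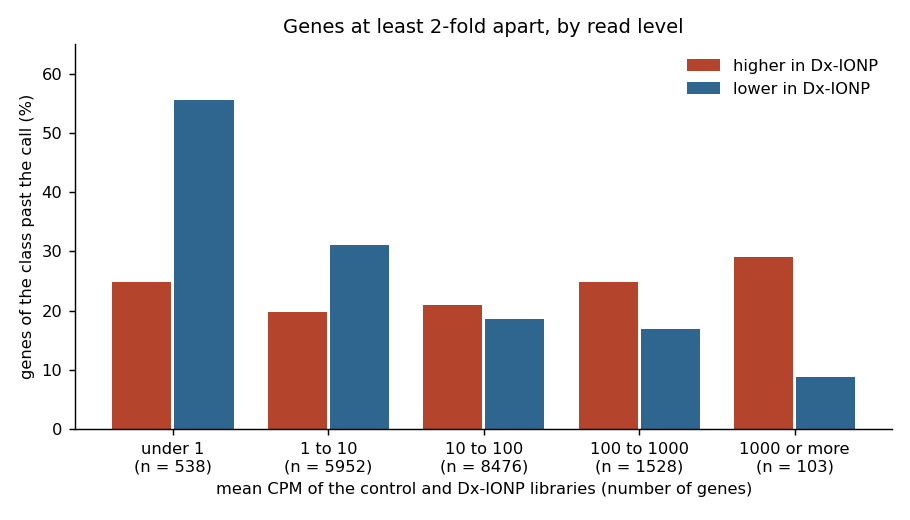
Percentage of genes at least 2-fold higher (red) or lower (blue) in the Dx-IONP library, by the mean CPM of the control and Dx-IONP libraries, with the number of genes in each class on the horizontal axis. From the class of 1 to 10 CPM to that of 1000 CPM or more the lower share runs from 31.1% to 8.74%, while the class below 1 CPM was admitted only through the higher library and is not comparable.

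A few genes carried much of the shift in reads. The 10 genes with the most reads held 19.2% of the Dx-IONP library and 11.1% of the control library. The 15 largest gains in CPM added up to 165286 CPM, 34.3% of the gain over all genes with more CPM in Dx-IONP. The keratin gene krt4, which encodes an intermediate filament protein of the surface epithelium, made up 17.1% of the gain over all of those genes. In the 4 lanes krt4 stood at 97278, 97334, 97249.6 and 97458 CPM in Dx-IONP and at 14890.2, 14912, 14927 and 14888 CPM in control. The lanes of a library lay close together for krt4, and the lanes of the 2 libraries did not overlap for any of the 15 gains or of the 15 largest losses.

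Among the other large gains were the fast muscle parvalbumin pvalb1, a calcium buffer (46964 CPM against 25339.8 in control), the glycolytic enzyme GAPDH (7611 CPM against 1302), the fast myosin light chain MYL11 (11064 CPM against 4826) and the yolk lipoprotein gene apobb.1 (12322 CPM against 6623). The matrix protein periostin, POSTN, stood at 7299 CPM against 1621, which is a log2 fold of 2.17 (2.16 to 2.18). The constitutive heat shock chaperone HSPA8, at 8156 CPM against 3409, and the small ribosomal subunit gene RPS2, at 4644 CPM against 1181, also gained. The genes si:dkey-9l20.3 and zgc:154164, which have only locus names, went from 55.1 to 5050.4 CPM and from 1.17 to 3176 CPM. The losses were spread over more genes: the 15 largest made up 13.7% of the loss over all genes with less CPM in Dx-IONP. They included 6 mitochondrially encoded genes, the apolipoproteins apoa2 (8528 CPM against 12372) and apoa1b (3586 CPM against 6166), the keratin krt5 (2171 CPM against 5096), the cone opsin OPN1SW, the lens crystallin crygm2d10 and the troponin TNNC2 (903 CPM against 1970.3). The large-subunit ribosomal gene RPL36AL was among them at 885 CPM against 2182, with 149 CPM in the IC library. Of the 15 gains and 15 losses, pvalb1, actb1 and apobb.1 on the one side and apoa2 and apoa1b on the other were less than 2-fold apart.

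**Figure D2:**
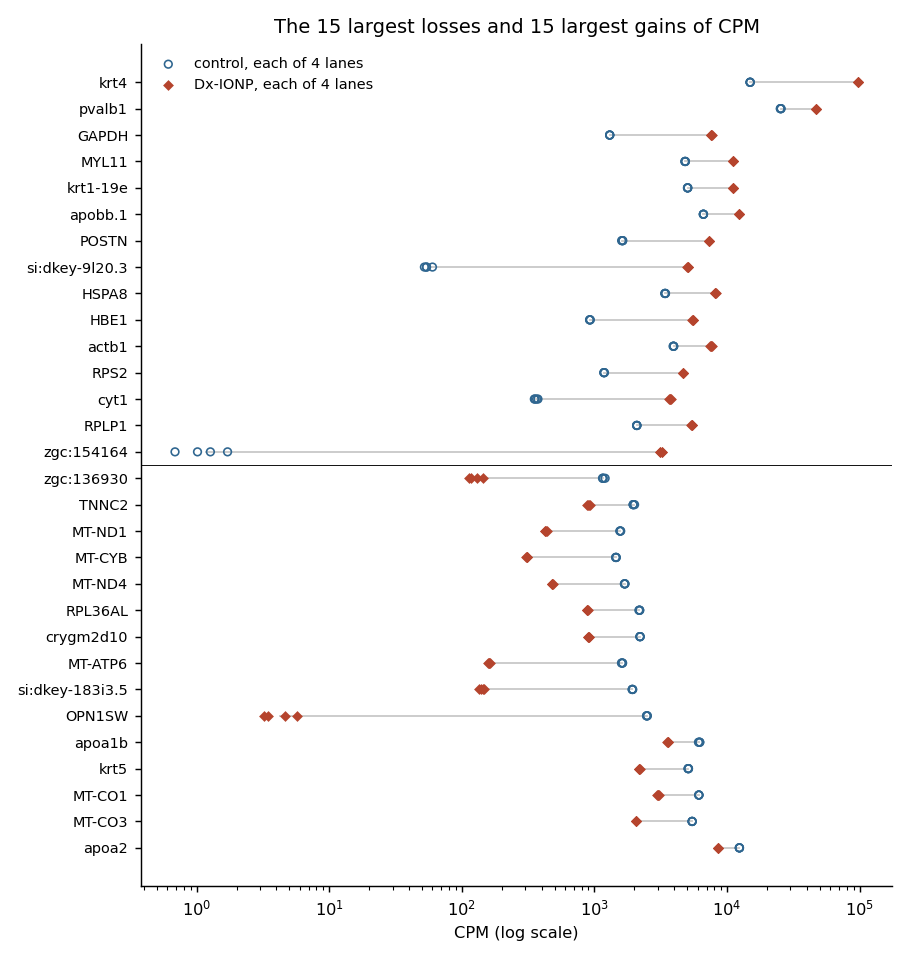
CPM on a log axis in each of the 4 lanes of the control library (open circles) and the Dx-IONP library (diamonds), for the 15 genes with the largest loss of CPM (below the line) and the 15 with the largest gain (above it). The lanes of each library cluster and the 2 libraries stand apart for all 30 genes, while lanes are repeat runs and not replicates.

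**Figure D3:**
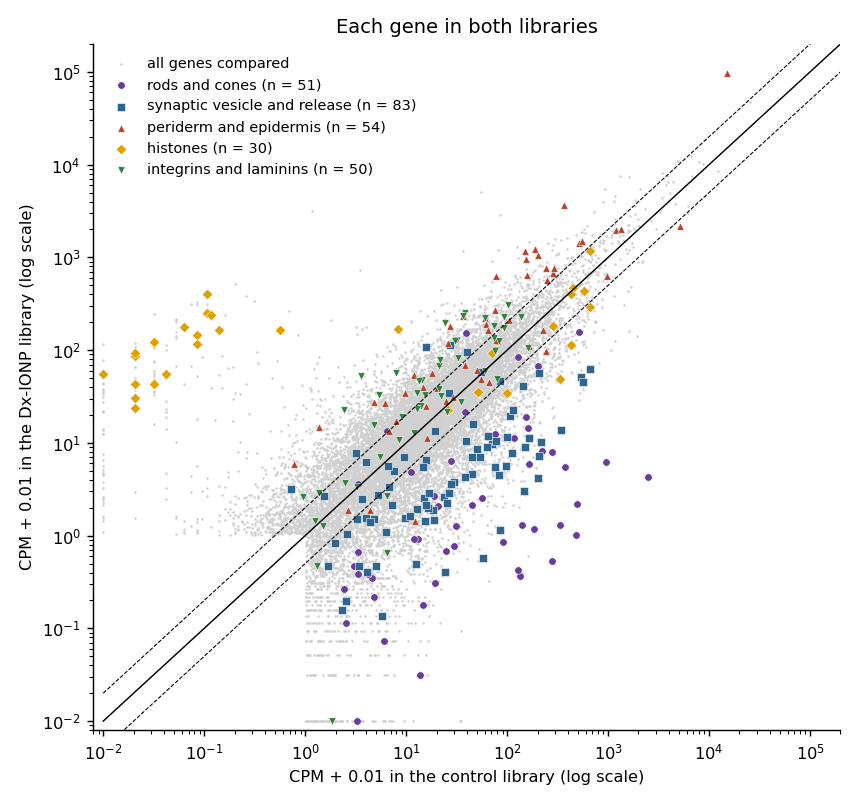
CPM plus 0.01 of each of the 16597 genes in the control (horizontal) and Dx-IONP (vertical) libraries, both on log axes, with equality as a solid line and 2-fold differences as dashed lines. Rod and cone genes and synaptic vesicle genes lie mostly below the dashed band, epidermal and integrin or laminin genes mostly on or above it, and a row of histone genes near 0 CPM in control stands far above it.

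The 121 lists (34 of tissues and cell types, 87 of families) held 6148 different genes, of which 5366 were compared. A list's counts are over the members with at least 1 CPM in either library, to be read beside 21.1% higher and 24.0% lower over all genes, and its median log2 fold beside 0.03. Members below 1 CPM in 1 library, such as prss59.2, pdyn, pmchl and ctslb below, were compared only through the other library. Their direction was set by the filter, and they enter the counts and medians of lists and families. Each of the 34 tissue lists had members with reads in control, with summed levels from 119 CPM for thrombocytes to 54338 CPM for fast muscle. More than 50% of the members were lower in 19 lists and higher in 5. The lists with the lowest medians were those of the exocrine pancreas, the photoreceptors, the neurosecretory system and the nervous system, and those with the highest were histones, epidermis, hatching gland, red blood cells and thrombocytes.

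**Figure D4:**
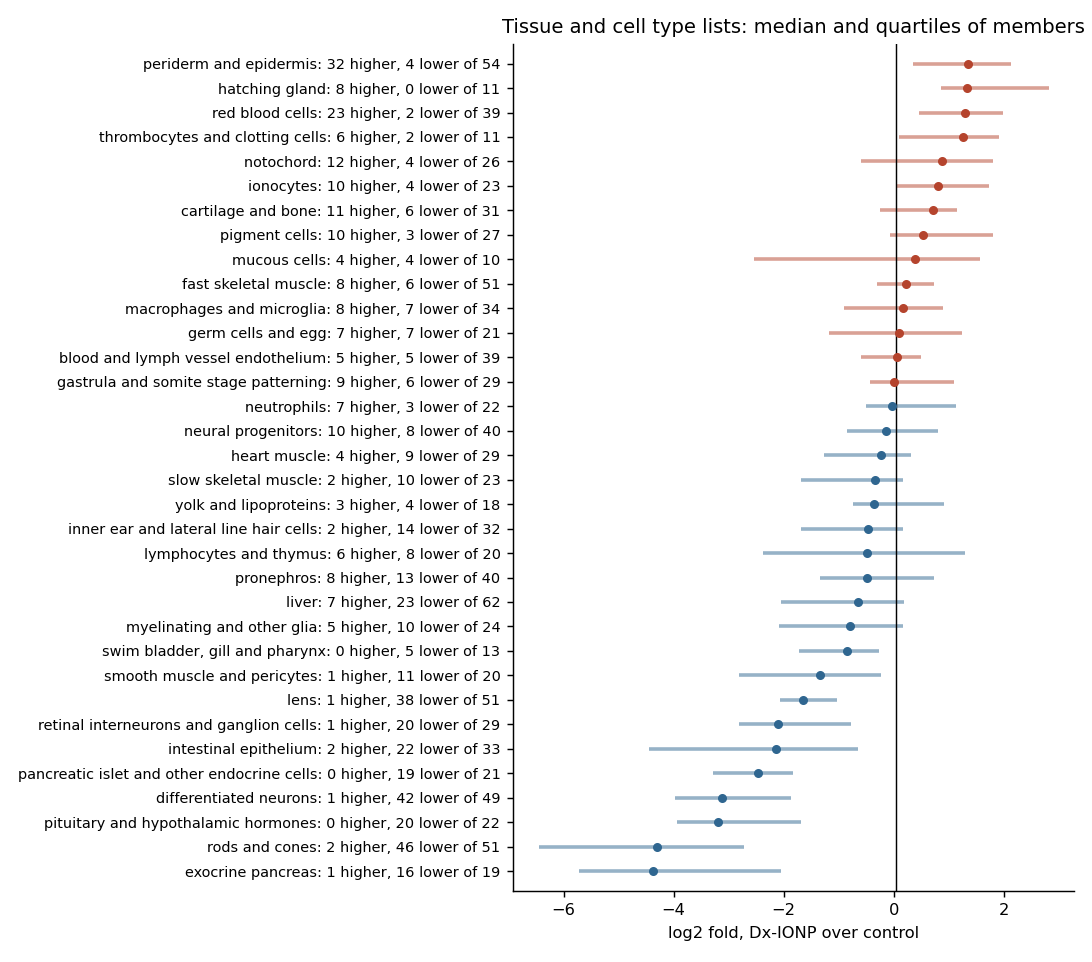
Median (point) and quartiles (bar) of the log2 fold of Dx-IONP over control for the members of each tissue or cell type list, with the number of members higher and lower of those compared, and a vertical line at the median of all genes. Exocrine pancreas (-4.39) and rods and cones (-4.30) stand at the bottom, and periderm and epidermis (1.36), hatching gland (1.33) and red blood cells (1.31) at the top.

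Genes of the nervous system were lower across many lists. Synapses pass signals by releasing vesicles of transmitter onto receptors, and the genes for each step were lower together. Of the genes for synaptic vesicles and their release, 67 were lower and 5 higher of 83 compared (93 in the table), with a median log2 fold of -2.75 and quartiles of -3.46 to -1.32. Their summed level was 1069.6 CPM against 5695 in control. The vesicle membrane gene synaptophysin, sypa, which had the most reads of the list, stood at 66.2, 63.7, 60.95 and 59.7 CPM in the 4 Dx-IONP lanes and at 663, 667, 675 and 656 CPM in the control lanes. The libraries did not overlap, the log2 fold was -3.41 (-3.46 to -3.36), and the IC library had 1262 CPM. The vesicle glycoprotein gene sv2ba stood at 1.14 CPM against 84.5 (log2 fold -6.18, -6.63 to -5.83), and the complexin CPLX4, a clamp on vesicle fusion, at 0.569 CPM against 58.2 (log2 fold -6.60, -7.28 to -6.13). The higher members included syngr2a, a synaptogyrin of the form that in mammals is found mostly outside neurons, at 107 CPM against 15.9 (log2 fold 2.75, 2.67 to 2.84), and the similar gene SYNGR2 at 114 CPM against 27.3 CPM.

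Receptors on the receiving side were lower as well. Glutamate receptors carry most fast excitation in the brain, and 53 of 71 genes of these receptors and their partners were lower against 2 higher (median log2 fold -2.66, quartiles -3.78 to -1.03). The receptor-trafficking subunits CACNG2 and CACNG3 stood at 1.01 CPM against 41.8 and 2.67 CPM against 69.8 CPM. The presynaptic adhesion gene nrxn1a, which organizes synapses, was at 49.6 CPM against 239 (log2 fold -2.27, -2.33 to -2.21). The 2 higher members were the glutamate receptor subunit grin3ba (log2 fold 1.54) and the scaffold gene homer2 (1.41), which is also expressed outside the brain in mammals. Receptors for the inhibitory transmitters GABA and glycine were lower for 21 of 27 (median log2 fold -2.72, quartiles -3.99 to -1.10), with log2 folds of -5.92 for GABRA6 and -4.54 for GABRB2, both GABA-A subunits. A single member was higher, the glycine receptor subunit glra4a, at 69.9 CPM against 3.05 (log2 fold 4.50, 4.34 to 4.70). Receptors for acetylcholine and monoamines were lower for 27 of 46 compared, of 77 in the table. Their median log2 fold was -1.52, but it stood at 0.19 over the members that reach 10 CPM. The neuronal subunit CHRNA6 stood at 1.41 CPM against 18.4 CPM, while CHRNE and CHRNB1, subunits of the muscle receptor at the nerve ending, stood at 80.2 CPM against 31.3 and 26.9 CPM against 11.5, log2 folds of 1.36 and 1.22. These subunits were named by rank within the list, so the contrast between those of neurons and of muscle was set by the choice. Nicotinic alpha subunits (chrna) were 9 lower and 0 higher of 11 compared.

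The lists of voltage-gated potassium, sodium and calcium channels and of sodium and calcium pumps each had more lower than higher members. Other potassium channel names did not share this. Genes named kcnk were 5 higher and 2 lower of 10 compared (median 0.94), and those named kcnj 6 higher and 7 lower of 22 (median -0.08). Voltage-gated potassium channels had 26 lower and 2 higher members of 44 (median -1.24), with kcnb2a at 0.316 CPM against 20.5 (log2 fold -5.89, -6.86 to -5.30). Sodium channels had 6 lower and 3 higher members of 11 (median -1.75), with a log2 fold of -3.89 for the beta subunit SCN3B. Calcium channels and related genes were mixed, 16 higher and 34 lower of 69 compared (median log2 fold -0.98, quartiles -2.44 to 0.88). The auxiliary subunit CACNA2D1 was the highest of these, at 42.1 CPM against 0.913 CPM, but its Dx-IONP lanes ranged from 16.9 to 77.2 CPM, far more than counting error. Sodium and calcium pumps were lower for 18 of 32 (median -1.43). The plasma membrane calcium pumps atp2b2 and atp2b3a stood at 2.06 CPM against 78.3 and 9.25 CPM against 147 CPM, while the skin ionocyte sodium pump subunit atp1a1a.3 was higher at 90.9 CPM against 26.2 (log2 fold 1.79, 1.72 to 1.87). The muscle calcium pump atp2a1l stood at 601 CPM against 328.

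Markers of differentiated neurons were lower for 42 of 49 and higher for 1, with a summed level of 698 CPM against 5185. The calcium sensor of release, SYT1, stood at 45.9 CPM against 563 (log2 fold -3.62, -3.68 to -3.55), and the neurofilament gene nefla at 0.0632 CPM against 10.3 (log2 fold -6.77, -9.63 to -5.80). Hormones of the hypothalamus and pituitary, most of them neuropeptides, were lower for 20 and higher for 0 of 22 compared, of 36 in the table (median log2 fold -3.20, quartiles -3.95 to -1.68). Apart from adcyap1b, a peptide of the PACAP family at 51.4 CPM against 171 CPM, most were near or below 10 CPM in control. The opioid precursor pdyn stood at 0.632 CPM against 10.5 CPM and the melanin-concentrating hormone gene pmchl at 0.716 CPM against 10.6, with 0.747 CPM of pmchl in IC as well. The low level of pmchl was thus shared with the IC library, unlike those of sypa and SYT1, which had 1262 and 663 CPM there.

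Neural progenitors did not follow the neurons. Their list was 10 higher and 8 lower of 40 compared, with a median of -0.14 and summed levels of 2813 and 2858 CPM. The Notch receptor NOTCH1, which holds progenitors in the cycle, was higher at 217 CPM against 24.3 (log2 fold 3.16, 3.09 to 3.23), as was its target her4.2 at 134 CPM against 21.7 (log2 fold 2.62, 2.55 to 2.69). The eye, brain and islet factor PAX6 (ENSDARG00000103379) stood at 23.8 CPM against 278 (log2 fold -3.54, -3.63 to -3.46), and INSM1, which acts as progenitors leave the cycle, at 10.3 CPM against 49.7 (log2 fold -2.27, -2.41 to -2.14). These genes were named for the highest and lowest log2 folds of the list, so their lying on opposite sides was set by the choice. Glial markers were 5 higher and 10 lower of 24 compared (median log2 fold -0.80, quartiles -2.08 to 0.17). The glutamate transporter SLC1A2 (ENSDARG00000102453), which clears transmitter at synapses, stood at 101 CPM against 1058 CPM, and the myelin gene mbpa at 1.16 CPM against 26.6 with 117 in IC. The glial transporter SLC1A3 (ENSDARG00000104431) was higher at 301 CPM against 53.4 (log2 fold 2.50, 2.45 to 2.54).

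Protocadherins, clustered adhesion proteins that give neurons surface identities, were lower for 25 of 46 (median log2 fold -1.50, quartiles -2.71 to 0.25, summed 869.8 CPM against 2250.2). The cluster gene pcdh1a6 stood at 4.91 CPM against 142 CPM and pcdh2g28, with the most reads, at 163 CPM against 312. Clustered protocadherins share exons, so reads can be split unevenly among them, and the Dx-IONP lanes of pcdh1a6 ranged from 2.02 to 8.04 CPM. Of the 5 higher members, PCDH12 (log2 fold 1.84) and pcdh20l (1.65) are not cluster genes, and mammalian PCDH12 is a protein of vessel walls. Axon guidance genes as a whole were divided, 28 higher and 20 lower of 84 compared (median log2 fold 0.26, quartiles -0.84 to 1.40). The axonal adhesion gene CNTN1 stood at 2.49 CPM against 50.9 CPM and the netrin-G gene NTNG1 at 1.41 CPM against 13.5, while the secreted guidance cue sema3ga was higher at 41.95 CPM against 5.98 (log2 fold 2.80, 2.67 to 2.95) and the cell adhesion gene chl1a at 153 CPM against 23.3 (log2 fold 2.72, 2.65 to 2.79).

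In the eye the loss reached from photoreceptors to lens. Rod and cone genes were lower for 46 of 51, with a summed level of 748 CPM against 8979.8. The cone transducin subunit GNGT2 stood at 0.526 CPM against 276 CPM and at 27.9 CPM in IC. The short-wavelength opsin OPN1SW stood at 3.45, 5.67, 3.23 and 4.62 CPM in the 4 Dx-IONP lanes and at 2469, 2491, 2503 and 2472 CPM in control. Its level in IC was 3509 CPM, on the other side of control. A higher member was UNC119B, a lipid-binding carrier with a photoreceptor relative, at 153 CPM against 38.9 (log2 fold 1.97, 1.92 to 2.03). Interneuron and ganglion cell genes of the retina were lower for 20 of 29 (median -2.11), among them trpm1b, a channel of ON bipolar cells, at 0.737 CPM against 20.3 (log2 fold -4.73, -5.31 to -4.30). The pigment epithelium enzyme RPE65, which regenerates the visual chromophore, was higher at 355 CPM against 53.2 (log2 fold 2.74, 2.69 to 2.78). Lens genes were lower for 38 of 51 compared (66 in the table; median log2 fold -1.65, quartiles -2.07 to -1.02), and the list took 0.455% of the reads against 1.6%. The crystallin crygm2d10 was lower by less than most photoreceptor genes, at 903 CPM against 2204 (log2 fold -1.29, -1.30 to -1.27), and crybgx by more, at 2.02 CPM against 90.7 (log2 fold -5.47, -5.79 to -5.20). Hair cell genes of the ear and lateral line had 14 lower and 2 higher members of 32 (median -0.46). The stereocilia scaffold gene USH1G stood at 0.948 CPM against 11.5 CPM, while the factors that start hair cell formation, ATOH1 (ENSDARG00000055294) and atoh1b, were higher at 25.5 CPM against 8.24 and 14.7 CPM against 3.02. The initiating factors and the stereocilia gene were named for the highest and lowest log2 folds of this list, so their opposite sides were set by the choice.

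Organs of the gut tube were lower, the pancreas most of all. Exocrine pancreas genes were lower for 16 of 19 compared, of 29 in the table, with a summed level of 30.6 CPM against 250.1. The protease gene prss59.2 stood at 0.421, 0.43, 0.166 and 0.252 CPM in the 4 Dx-IONP lanes and at 66.99, 64.7, 66.2 and 65.9 CPM in control, and at 6.19 CPM in IC. The lanes did not overlap, and IC lay between the libraries. The pancreas progenitor factor PTF1A was the higher member, at 10.6 CPM against 4.48 (log2 fold 1.23, 1.05 to 1.43). Islet and other endocrine genes were lower for 19 and higher for 0 of 21 (median log2 fold -2.47, quartiles -3.28 to -1.83). The granule protein gene chgb, shared by endocrine cells and neurons, stood at 0.548 CPM against 39.7 (log2 fold -6.10, -6.80 to -5.63). Intestinal epithelium genes were lower for 22 of 33 (median log2 fold -2.14, quartiles -4.45 to -0.66), with the chitinase chia.2 at 0.126 CPM against 16.9 CPM, while their summed level was near equal (2800.1 CPM against 2837) through the lipid carrier apoa4b.1 at 1883 CPM against 1562. The brush border peptidase ANPEP was higher, at 75.2 CPM against 20.5 (log2 fold 1.88, 1.80 to 1.96).

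Liver genes leaned lower by count, with some abundant members higher. They were 7 higher and 23 lower of 62 compared (median log2 fold -0.65, quartiles -2.04 to 0.19), and their summed level was 37016 CPM against 38251. The fatty acid carrier fabp10a stood at 0.421 to 0.746 CPM over the Dx-IONP lanes and 155 to 164 over the control lanes, a log2 fold of -8.01 (-8.67 to -7.55). The bile acid enzymes CYP7A1 and CYP8B1 stood at 0.379 CPM against 11.01 and 0.484 CPM against 19.8 CPM. The lipoprotein gene apobb.2 was higher at 362 CPM against 62.5 (log2 fold 2.53, 2.49 to 2.58), and the gluconeogenic enzyme fbp1a at 123 CPM against 34.3 (log2 fold 1.84, 1.78 to 1.90). Yolk and lipoprotein genes, which the yolk layer also expresses, were 3 higher and 4 lower of 18 compared with summed levels of 38617 and 38996 CPM. The summed lipoprotein level was thus near equal while the named bile acid enzymes were lower. Genes of the swim bladder, gill and pharynx were lower for 5 and higher for 0 of 13, with the endoderm factor FOXA2 at 2.57 CPM against 14.8 (log2 fold -2.51, -2.81 to -2.26).

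The body surface went the other way. Periderm and epidermis genes were higher for 32 and lower for 4 of 54 (median log2 fold 1.36, quartiles 0.36 to 2.14, 0.99 on total reads), and took 10.5% of the reads against 3.17%. The type I keratin gene cyt1 stood at 3711 CPM against 362 (log2 fold 3.36, 3.34 to 3.37), and the cornified envelope cross-linking enzyme TGM1 (ENSDARG00000101407) at 14.8 CPM against 1.36 (log2 fold 3.41, 3.17 to 3.72). The list was not uniform: krt5 was lower by a log2 fold of -1.23, krt18a.2 of -3.09 and icn2 of -1.29. Keratins and other intermediate filaments alone had a median of -0.47, with 5 higher and 12 lower of 32, although their sum was 110495 CPM against 25442. The median and the sum differ in sign because krt4 and cyt1 hold most of the sum and the neurofilament genes, such as neff1 with a log2 fold of -4.84, are among the lower members.

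Ionocyte, hatching gland and pigment genes were higher too, and mucous genes were divided. Ionocytes, which take up salts and excrete acid, had 10 higher and 4 lower of 23 (median 0.80, 0.43 on total reads). The ammonia channel gene RHCG (ENSDARG00000003203) stood at 235 CPM against 16.1 (log2 fold 3.87, 3.79 to 3.95), while another row of that name (ENSDARG00000007080) stood at 4.86 CPM against 28.8 (log2 fold -2.56, -2.76 to -2.37). The ionocyte factor foxi3b was higher at 28.1 CPM against 8.86 (log2 fold 1.66, 1.54 to 1.79). Of the hatching gland, a larval gland that secretes the enzymes that open the egg envelope and is then lost, 8 of 11 genes were higher and 0 lower (median 1.33, of 16 in the table). The cathepsin gene ctslb, a hatching gland gene, stood at 40.6, 40.7, 34.7 and 39.8 CPM in the 4 Dx-IONP lanes and at 0.215, 0.263, 0.0847 and 0 CPM in control. It was at 1.28 CPM in IC, and its log2 fold was 7.83 (7.35 to 9.04). The serine protease tmprss13a stood at 27.02 CPM against 3.36 (log2 fold 2.99, 2.83 to 3.19). Mucous cell genes were 4 higher and 4 lower of 10 compared, with the disulfide isomerase AGR2 of mucus-making cells at 293 CPM against 116 (log2 fold 1.33, 1.30 to 1.37) and the intelectin ITLN1 at 2.30 CPM against 14.9 (log2 fold -2.68, -2.99 to -2.41). Pigment cell genes were higher for 10 and lower for 3 of 27 (median 0.54, 0.17 on total reads). The melanin enzyme TYR stood at 119.5 CPM against 22.8 (log2 fold 2.39, 2.32 to 2.46) and the pteridine enzyme gch2 at 1206 CPM against 279 (log2 fold 2.11, 2.09 to 2.13), while the melanosome fibril gene pmelb was lower at 49.5 CPM against 213 (log2 fold -2.10, -2.16 to -2.04).

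Connective tissue and its matrix were higher. Integrins bind cells to the matrix and laminins build the sheet under epithelia, and 24 of 50 of these genes were higher against 4 lower (median log2 fold 0.87, quartiles 0.21 to 1.74, 0.50 on total reads). The collagen-binding integrin ITGA2 stood at 50.4, 52.1, 54.7 and 52.2 CPM in the 4 Dx-IONP lanes and 3.61, 3.29, 3.64 and 3.64 in control. The laminin subunit lamc1 was at 307 CPM against 103 (log2 fold 1.58, 1.54 to 1.62). Collagens were 16 higher and 5 lower of 35 compared (median 0.84), with the fibril genes COL1A1 at 1900.0 CPM against 941 (log2 fold 1.01, 1.001 to 1.03) and COL1A2 at 2163 CPM against 613 (log2 fold 1.82, 1.81 to 1.84), and the hemidesmosome collagen col17a1b at 53.6 CPM against 11.98 (log2 fold 2.16, 2.06 to 2.26). Matrix metalloproteases, ADAM proteases and their inhibitors were higher for 25 and lower for 8 of 52 (median 0.90). The procollagen-processing protease ADAMTS3 stood at 24.9 CPM against 4.04 (log2 fold 2.61, 2.45 to 2.79) and MMP9 at 33.6 CPM against 8.91 (log2 fold 1.91, 1.79 to 2.04). The lower members included ADAM23 (log2 fold -2.80) and ADAM11 (-1.77), neuronal adhesion proteins without protease activity in mammals. Notochord genes were 12 higher and 4 lower of 26 compared (median 0.89), with the collagen hydroxylase PLOD1 at 237 CPM against 47.4 (log2 fold 2.32, 2.27 to 2.37) and the caveolin CAV1 at 900.1 CPM against 249, with 1169 in IC. Cartilage and bone genes were 11 higher and 6 lower of 31 compared (median 0.72), and the collagen of hypertrophic cartilage and bone, COL10A1, was lower at 33.8 CPM against 99.8 (log2 fold -1.56, -1.64 to -1.49), with 425 CPM in IC.

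Lists of contractile tissue differed in how far they leaned lower, and fast muscle had no direction. Fast skeletal muscle genes had a median of 0.23 and took 6.92% of reads against 6.02%. They were 8 higher (15.7%) and 6 lower (11.8%) of 51 compared, both shares below those over all genes. Slow muscle genes had a median of -0.34, 2 higher and 10 lower of 23 compared, but their sum was 4881 CPM against 2782 through the slow myosin heavy chain smyhc1 at 1535 CPM against 344 (log2 fold 2.16, 2.14 to 2.18). The thin filament genes TNNI2 (0.168 CPM against 18.5 CPM) and TNNT1 (0.147 CPM against 12.03) were the lowest of these lists. The giant thin filament ruler NEB stood at 72.4 CPM against 1.30 CPM, with Dx-IONP lanes from 47.4 to 93.6 CPM. Heart muscle genes, which bear on the cardiac effects named in the study's design, were lower for 9 and higher for 4 of 29 (median log2 fold -0.23, quartiles -1.27 to 0.32). The myosin heavy chain MYH6 (ENSDARG00000079564) stood at 11.1 to 14.02 CPM over the Dx-IONP lanes and 56.6 to 60.1 over the control lanes, and at 59.7 in IC. The filament protein NEXN was at 5.96 CPM against 52.01 (log2 fold -3.12, -3.30 to -2.95), although its control lanes ranged from 45.7 to 58.4 CPM. The pacemaker-related genes POPDC2 and POPDC3 were higher at 23.5 CPM against 10.5 and 16.3 CPM against 5.75 CPM, and actc1b, with the most reads of the list and shared with skeletal muscle, was at 3057 CPM against 3287. Smooth muscle and pericyte genes were lower for 11 of 20 (median log2 fold -1.35, quartiles -2.81 to -0.22). Smooth muscle actin acta2 stood at 4.04, 6.45, 3.90 and 4.62 CPM in Dx-IONP and 93.98, 97.9, 94.5 and 95.4 in control, and the actin-binding TAGLN (ENSDARG00000045408) at 0.358 CPM against 16.1 (log2 fold -5.37, -6.27 to -4.80). The mural cell receptor NOTCH3 was the higher member, at 308 CPM against 124 (log2 fold 1.31, 1.28 to 1.35).

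Vessel lining stood near the median of all genes and red blood cells well above it. Endothelial genes, the tissue that the reporter of this line marks, were 5 higher and 5 lower of 39 compared, with a median log2 fold of 0.06 (-0.31 on total reads) and summed levels of 846 CPM in Dx-IONP and 856 in control. The vessel receptor gene kdrl, a defining marker named after its values were seen, stood at 31.6 CPM against 22.98 CPM. The sphingosine receptor S1PR1 was lower at 40.7 CPM against 124 (log2 fold -1.604, -1.67 to -1.53), and the tight junction gene CLDN5 (ENSDARG00000043716) higher at 36.6 CPM against 12.7 (log2 fold 1.53, 1.43 to 1.64). Red blood cell genes were higher for 23 and lower for 2 of 39 (median 1.31, 0.87 on total reads). The mitochondrial iron importer of red cells, SLC25A37, stood at 19.8, 15.9, 18.99 and 17.1 CPM in Dx-IONP and 1.20, 0.701, 0.72 and 0.514 in control, with 1.14 in IC. The membrane anchor ANK1 (ENSDARG00000074777) and the enzyme BPGM were lower, with log2 folds of -2.26 and -1.19. Thrombocyte and clotting cell genes were higher for 6 and lower for 2 of 11 (median 1.26), with the fibrinogen receptor subunit ITGB3 (ENSDARG00000045070) at 22.3 CPM against 2.43 (log2 fold 3.19, 2.99 to 3.42) and the platelet glycoprotein gene gp9 at 15.1 CPM against 3.57 (log2 fold 2.07, 1.89 to 2.28).

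Markers of neutrophils and of macrophages had medians near that of all genes. These were -0.03 for neutrophils (7 higher and 3 lower of 22 compared) and 0.18 for macrophages and microglia (8 higher and 7 lower of 34 compared). Lymphocyte and thymus genes had a lower median of -0.48, with 6 higher and 8 lower of 20 compared, of 55 in the table. The leukotriene enzyme ALOX5 stood at 22.7 CPM against 2.998 (log2 fold 2.91, 2.73 to 3.11). The macrophage growth factor receptor csf1ra had a log2 fold of 1.68 and the lysosomal marker cd68 of -2.40. Both were named by rank within the macrophage list, so their opposite sides were set by the choice. The thymus chemokine ccl25a stood at 0.695 CPM against 15.6 (log2 fold -4.43, -5.03 to -3.99) and the T cell factor GATA3, which neurons and the ear also express, at 7.48 CPM against 74.98 (log2 fold -3.32, -3.48 to -3.17). Signalling genes of inflammation stood higher than the markers of the cells. Genes of NF-kB, the inflammasome and NOD-like receptors were higher for 16 and lower for 0 of 35 (median 0.77, 0.41 on total reads). The inflammatory caspase caspb stood at 907, 904, 904 and 910.4 CPM in Dx-IONP and 71.5, 69.7, 69.2 and 73.8 in control, with 112 in IC. The kinase IKBKB, which releases NF-kB, stood at 39.9 CPM against 2.79 (log2 fold 3.82, 3.65 to 4.03), and the inducible nitric oxide synthase NOS2 at 35.9 CPM against 1.343 (log2 fold 4.71, 4.48 to 5.01). Cytokines and their receptors were 25 higher and 8 lower of 66 compared, of 113 in the table (median 0.77), with the macrophage growth factor csf1b at 19.96 CPM against 3.07 (log2 fold 2.69, 2.51 to 2.90). Interferon response genes were 19 higher and 3 lower of 53 compared, of 94 in the table (median 0.67). The transcription factors stat6 (log2 fold 2.88) and stat5b (2.58) were placed in this list by name, and interferon activity was not tested. Chemokines were 12 higher and 8 lower of 31 compared, with the receptor CXCR4 (ENSDARG00000057633) at 51.8 CPM against 5.07 (log2 fold 3.35, 3.21 to 3.50) and the ligand CXCL12 lower at 36.9 CPM against 110.0, with 533 in IC. Complement genes, made mostly by liver, had a median of -0.50 (3 higher and 8 lower of 26 compared), with c7a higher at 143 CPM against 14.3 (log2 fold 3.32, 3.24 to 3.41).

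Genes of early development gave no single direction. Patterning genes of the gastrula and somite stages were 9 higher and 6 lower of 29 compared, of 47 in the table, with a median of 0.00. The hairy-related gene her12 stood at 36.3 CPM against 7.84 (log2 fold 2.21, 2.08 to 2.34) and the Bmp modulator BAMBI (ENSDARG00000099677) at 28.3 CPM against 7.60 (log2 fold 1.89, 1.76 to 2.03), while the retinoic acid enzyme ALDH1A2 was lower at 23.6 CPM against 54.5 (log2 fold -1.20, -1.30 to -1.11). Germ cell and egg genes were 7 higher and 7 lower of 21 compared, of 50 in the table. Kidney genes of the pronephros were 8 higher and 13 lower of 40 compared (median -0.49), with 2 rows for the potassium channel KCNJ1 higher, at 21.4 CPM against 1.55 CPM (ENSDARG00000090635) and 15.5 CPM against 2.36 CPM (ENSDARG00000090866). The second of these had 15.9 CPM in IC and the first 0.236.

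**Figure D5:**
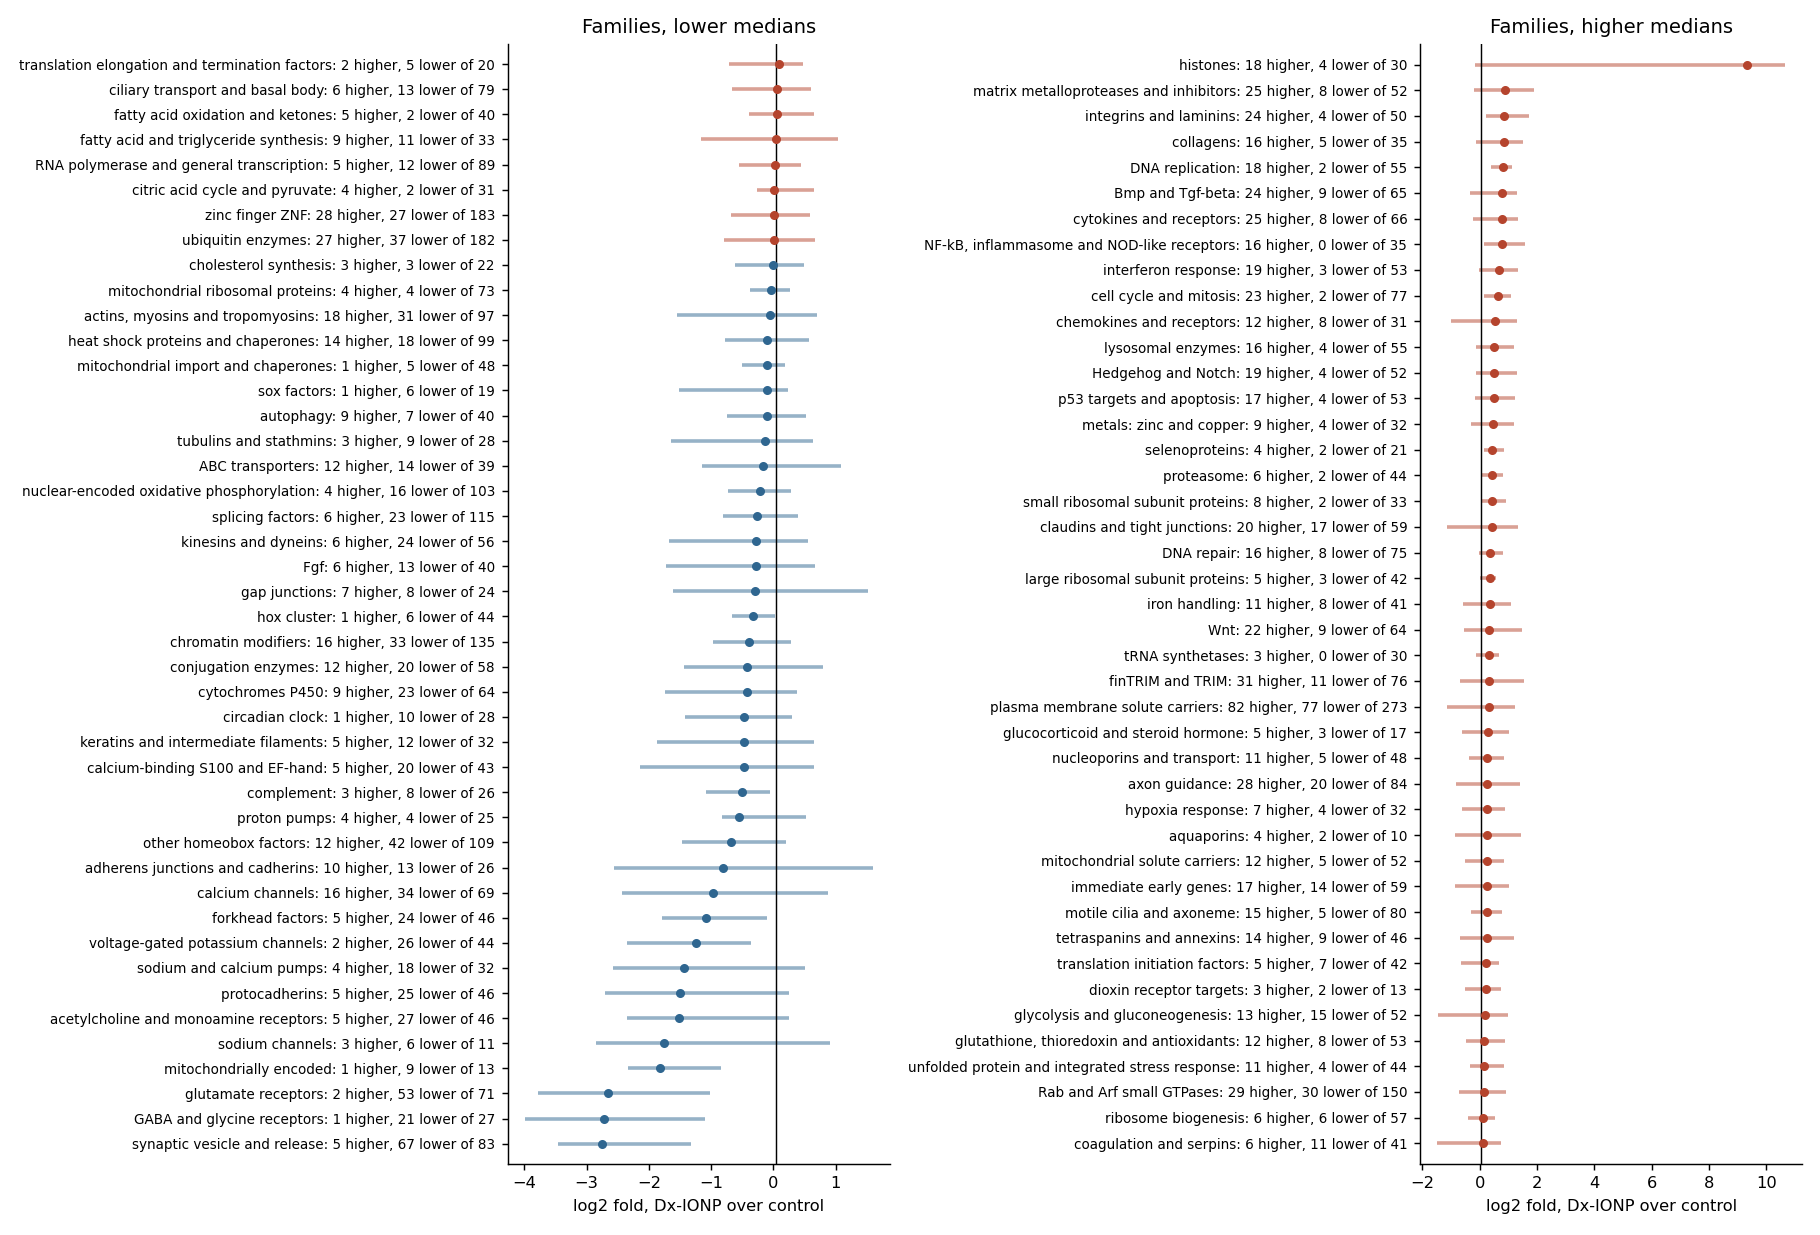
Median (point) and quartiles (bar) of the log2 fold of Dx-IONP over control for the members of each of 87 gene families, the lower medians on the left and the higher on the right (the axes differ), with member counts as labels and a vertical line at the median of all genes. Synaptic vesicle genes (-2.75) stand lowest, histones (9.32) highest, and most families of basic cell function lie within 0.5 of the median of all genes. Histone members near 0 CPM in control were admitted only through the Dx-IONP library.

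Histones had the highest median of all 121 lists. Members near 0 CPM in control were compared only because of their Dx-IONP level, so their direction was set by the filter. The median rests largely on these members and is to be read beside the summed levels. Replication histones are made in S phase, and most of their messages end without a poly(A) tail, so a poly(A) library holds few of them. Of 30 histone genes, 18 were higher and 4 lower, with a median log2 fold of 9.32, quartiles of -0.15 to 10.65 and summed levels of 5676 against 4072 CPM. The cluster gene hist1h2a7 stood at 396, 413, 413 and 408 CPM in the 4 Dx-IONP lanes and at 0.0859, 0.175, 0.0847 and 0.0428 in control, with 0.0983 CPM in IC. The genes near 0 in control were replication histones, while the variant genes h2az2b and h3f3d, which have poly(A) tails and are made in resting cells, were lower. The first stood at 49.05 CPM against 332 (log2 fold -2.76, -2.82 to -2.70) and the second at 113 CPM against 427 (log2 fold -1.92, -1.97 to -1.88). The median is the same with the 1 gene without a control read at its lower bound. Histone cluster genes are near identical copies, so their single levels are uncertain.

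DNA replication genes were higher for 18 and lower for 2 of 55 (median log2 fold 0.81, quartiles 0.40 to 1.13, 0.44 on total reads). The replication clamp PCNA stood at 1004, 1006, 1009.5 and 1007 CPM in Dx-IONP and 442, 446, 446 and 434 in control, with 191 in IC. The ligase LIG1 and the chromatin assembly factor chaf1a were the lower members, with log2 folds of -1.68 and -1.39. Cell cycle and mitosis genes were higher for 23 and lower for 2 of 77 (median 0.66, 0.29 on total reads), with the centromere genes CENPI at 86.03 CPM against 16.7 (log2 fold 2.36, 2.28 to 2.45) and CENPL at 33.2 CPM against 5.82 (log2 fold 2.50, 2.37 to 2.65). The proliferation marker mki67 did not differ by 2-fold, at 331 CPM against 318 CPM. Genes of p53 and apoptosis were 17 higher and 4 lower of 53 compared (median 0.49), led in reads by CCNG1, a p53 target, at 3984 CPM against 893 (log2 fold 2.16, 2.15 to 2.17), with 2945 CPM in IC. The survival gene BCL2 was lower at 2.84 CPM against 17.8 (log2 fold -2.63, -2.91 to -2.39) and the executioner caspase CASP6 higher at 33.3 CPM against 6.33 (log2 fold 2.39, 2.26 to 2.54). DNA repair genes had a median of 0.36 that stood at -0.01 on total reads, with log2 folds of 1.65 for the uracil glycosylase UNG and -2.68 for the ADP-ribosyltransferase PARP6.

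Lists of machinery for making RNA and protein had medians within 0.5 of that of all genes, with some members far from it. Large-subunit ribosomal proteins had a median of 0.36 and small-subunit ones of 0.42, which on total reads were -0.01 and 0.05. Their quartiles were 0.01 to 0.58 and 0.04 to 0.93, and the members farthest out were RPL15 at 823 CPM against 212 (log2 fold 1.96, 1.93 to 1.98) and rps11l at 0.19 CPM against 16.9 (log2 fold -6.26, -7.61 to -5.55). Mitochondrial ribosomal proteins had a median of -0.03 with 4 higher and 4 lower of 73 compared. Translation initiation factors were 5 higher and 7 lower of 42 compared, with EIF1B at 1884 CPM against 554 CPM and 19334 in IC, far from both. Transfer RNA synthetases had no lower member of 30 and 3 higher ones, among them TARS1 with a log2 fold of 1.43. Splicing factors were 6 higher and 23 lower of 115 compared (median -0.27), a lower share of 20.0% beside 24.0% over all genes. Their summed level was 7257 CPM against 10720 in control, and those named srsf were 8 lower and 1 higher of 13. The splicing regulators hnrnpa1a and hnrnpa3 stood at 7.05 CPM against 181 (log2 fold -4.68, -4.85 to -4.53) and 0.379 CPM against 13.3 (log2 fold -5.02, -5.89 to -4.46). General transcription genes included taf15, an RNA-binding partner of polymerase II, at 3.98 CPM against 113 (log2 fold -4.82, -5.05 to -4.62). Chromatin modifiers were 16 higher and 33 lower of 135 compared (median -0.39), a lower share of 24.4% that is near the one over all genes, with the neuronal remodeller CHD5 at 2.04 CPM against 27.6 (log2 fold -3.74, -4.06 to -3.46).

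Energy metabolism differed between its genomes. Mitochondrially encoded genes were lower for 9 and higher for 1 of 13 and took 1.25% of reads against 2.91%, whereas the nuclear genes of the same respiratory complexes had a median of -0.21 (4 higher and 16 lower of 103 compared). The mitochondrial ATP synthase gene MT-ATP6 stood at 160.2 CPM against 1615 (log2 fold -3.33, -3.37 to -3.30), and its nuclear partner ATP5F1B at 1938 CPM against 1095 CPM. Within the mitochondrial genes the range was wide: MT-CO2 stood at 7555 CPM against 6760.0 CPM and MT-ND2 at 72.7 CPM against 811. The higher member was MT-ND6, which lies on the opposite strand from the other protein genes, at 20.3 CPM against 3.67 (log2 fold 2.46, 2.29 to 2.65). Glycolysis and gluconeogenesis genes were 13 higher and 15 lower of 52 compared, shares near those over all genes. Their median was 0.20 and their sums were 15216 against 8488 CPM. The neuronal enolase eno2 stood at 9.25 CPM against 136 (log2 fold -3.87, -4.02 to -3.74) and the liver pyruvate kinase PKLR at 7.10 CPM against 89.1 (log2 fold -3.64, -3.81 to -3.49), while the sugar transporter slc2a11b, a pigment cell gene, was at 542 CPM against 70.5 (log2 fold 2.94, 2.90 to 2.98). The citric acid cycle (median 0.01), fatty acid oxidation (0.05), cholesterol synthesis (-0.01) and mitochondrial import (-0.10) stood near all genes. Pyruvate carboxylase, PC, which feeds the cycle, was higher at 537 CPM against 96.3 (log2 fold 2.48, 2.44 to 2.51). Among enzymes that build fatty acids, the elongase of the retina and brain ELOVL4 (ENSDARG00000027495) stood at 3.90 CPM against 146 (log2 fold -5.22, -5.45 to -5.02) and the epidermal ELOVL7 at 180.3 CPM against 26.9 (log2 fold 2.74, 2.68 to 2.81).

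Iron handling, which bears on the exposure, showed no shared direction. Its genes were 11 higher and 8 lower of 41 compared (median log2 fold 0.35, quartiles -0.57 to 1.08, -0.02 on total reads), with summed levels of 3215 and 3219 CPM. Cells take up iron through the transferrin receptor and store it in ferritin, and the hormone hepcidin blocks its release. The erythroid transferrin receptor tfr1a stood at 82.3, 80.02, 82.2 and 84.8 CPM in Dx-IONP and 7.95, 9.77, 8.13 and 7.92 in control, with 14.97 in IC. The ferritin heavy chain fth1a stood at 1223 CPM against 1492 (log2 fold -0.29, -0.30 to -0.27), and hepcidin, hamp, at 0.674 CPM against 15.3 (log2 fold -4.45, -5.06 to -4.005) with 1.77 CPM in IC. Receptor, store and hormone had log2 folds of 3.28, -0.29 and -4.45. These genes were named for their reads or for their high or low folds, so no split by role in iron handling is read from them. Zinc and copper genes were 9 higher and 4 lower of 32 compared (median 0.46), and SLC39A14, a zinc and iron importer on the iron list as well, stood at 42.8 CPM against 6.61 (log2 fold 2.69, 2.57 to 2.83).

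Genes that meet foreign compounds and stress had members on both sides in each family, as had all genes (21.1% higher, 24.0% lower). The shares were 22.6% higher and 15.1% lower for antioxidants, and 14.1% and 18.2% for heat shock proteins and chaperones. Such a split is therefore not read as a result about these families. Cytochromes P450 were 9 higher and 23 lower of 64 compared (median log2 fold -0.43, quartiles -1.74 to 0.38). CYP1A1, the main target of the aryl hydrocarbon receptor, stood at 305, 311, 305 and 309 CPM in Dx-IONP and 21.4, 21.997, 23.3 and 22.4 in control, with 4.70 in IC, whereas the list of that receptor's targets had a median of 0.22. The steroid enzyme CYP17A1 was at 123 CPM against 11.7 (log2 fold 3.39, 3.30 to 3.49), and the glucocorticoid receptor NR3C1 at 96.7 CPM against 11.2 (log2 fold 3.11, 3.02 to 3.21). Conjugation enzymes were 12 higher and 20 lower of 58 compared, and tandem copies went apart: gstp1.2 stood at 2043 CPM against 572 (log2 fold 1.84, 1.82 to 1.85) and gstp1.1 at 0.632 CPM against 10.6 (log2 fold -4.005, -4.65 to -3.55). Antioxidant genes were 12 higher and 8 lower of 53 compared (median 0.15). Catalase, CAT, which breaks down hydrogen peroxide, was lower at 27.4 CPM against 187 (log2 fold -2.77, -2.86 to -2.69), while GCLM, a subunit of the enzyme that starts glutathione synthesis, was higher at 35.1 CPM against 10.2 (log2 fold 1.77, 1.66 to 1.89). The stress regulator NFE2L2 stood at 305 CPM against 113 (log2 fold 1.43, 1.40 to 1.47), with 255 CPM in IC. Heat shock proteins and chaperones were 14 higher and 18 lower of 99 compared (median -0.10), with the collagen chaperone SERPINH1 at 241 CPM against 46.4 (log2 fold 2.38, 2.33 to 2.43) and DNAJC6, which uncoats vesicles at synapses, at 9.48 CPM against 101 (log2 fold -3.40, -3.55 to -3.27). The unfolded protein response had a median of 0.14, with the amino acid transporter SLC7A5 at 82.7 CPM against 16.1 (log2 fold 2.36, 2.27 to 2.44) and the pancreatic isomerase pdia2 at 0.737 CPM against 30.8 (log2 fold -5.33, -5.91 to -4.91). Proteasome genes were 6 higher and 2 lower of 44 compared (median 0.44, 0.07 on total reads), both shares below those over all genes, ubiquitin enzymes had a median of 0.00 over 182 genes, and lysosomal enzymes were 16 higher and 4 lower of 55 compared (median 0.51, 0.14 on total reads). Proton pump genes were 4 higher and 4 lower of 25 compared, but their median was -0.56 and their sum 2462 CPM against 3729. In this list 1 row of the pore subunit ATP6V0C (ENSDARG00000036577) stood at 29.3 CPM against 514 (log2 fold -4.13, -4.21 to -4.05) and another (ENSDARG00000057853) at 418 CPM against 583 CPM.

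Among signalling pathways of growth and patterning, Bmp and Tgf-beta genes leaned higher and Fgf genes lower. Bmp and Tgf-beta genes were 24 higher and 9 lower of 65 compared (median log2 fold 0.78, quartiles -0.33 to 1.29, 0.39 on total reads). The receptor ACVR2B stood at 176, 174, 178 and 177 CPM in Dx-IONP and 8.55, 8.63, 8.89 and 7.83 in control, and the ligand gdf11 at 13.4 CPM against 1.16 (log2 fold 3.50, 3.24 to 3.84). The follistatin-like secreted protein FSTL1 was at 1598 CPM against 300.0 (log2 fold 2.41, 2.39 to 2.43), while the target ID4 was lower at 11.5 CPM against 44.8, with 199 in IC. These genes were named for their reads or for their high or low folds, so no split by role in the pathway is read from them. Hedgehog and Notch genes were 19 higher and 4 lower of 52 compared (median 0.50, 0.12 on total reads). The ligand SHH (ENSDARG00000038867) stood at 4.49 CPM against 14.9 (log2 fold -1.72, -1.94 to -1.52), and DISP1, which releases it from cells, at 64.7 CPM against 9.84 (log2 fold 2.71, 2.61 to 2.82). Wnt genes were 22 higher and 9 lower of 64 compared (median 0.34, -0.02 on total reads), with the ligand WNT9B at 33.7 CPM against 3.70 (log2 fold 3.18, 3.02 to 3.36), the receptor FZD1 at 27.6 CPM against 2.64 (log2 fold 3.37, 3.19 to 3.59) and the ligand wnt4b lower at 2.97 CPM against 27.1 (log2 fold -3.18, -3.45 to -2.95). Fgf genes leaned lower, 6 higher and 13 lower of 40 compared (median -0.29), although the feedback phosphatase DUSP6 was higher at 529 CPM against 133 (log2 fold 1.99, 1.96 to 2.02). The intracellular factor fgf11b, which in mammals binds sodium channels of neurons, stood at 1.58 CPM against 27.5 (log2 fold -4.09, -4.47 to -3.79).

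Forkhead, homeobox and sox factors each had more lower than higher members. Forkhead genes were 5 higher and 24 lower of 46 compared (median log2 fold -1.08, quartiles -1.79 to -0.11), homeobox genes outside the hox clusters 12 higher and 42 lower of 109 compared (median log2 fold -0.68, quartiles -1.47 to 0.20) and sox genes 1 higher and 6 lower of 19 compared (median -0.11). The ganglion cell factor POU4F2 stood at 6.32 CPM against 74.1 (log2 fold -3.55, -3.72 to -3.39), the hindbrain and hypothalamus factor FOXB1 at 2.02 CPM against 21.9 (log2 fold -3.41, -3.74 to -3.14) and SOX4 (ENSDARG00000098834), widely used in developing neurons, at 87.3 CPM against 402 (log2 fold -2.20, -2.25 to -2.16). The ionocyte factor foxi3b and the neural crest factor PAX3 (ENSDARG00000010192, log2 fold 2.22) were among the higher members. The hox clusters, which set position along the trunk, were close to level: 1 higher and 6 lower of 44 compared, with a median of -0.33 and quartiles of -0.67 to 0.03. Circadian genes were 1 higher and 10 lower of 28 compared (median -0.47), with the light-responsive cry3a at 134 CPM against 404 (log2 fold -1.59, -1.63 to -1.55) and tefa, a clock output factor, at 431 CPM against 213 (log2 fold 1.02, 0.99 to 1.05). Immediate early genes were 17 higher and 14 lower of 59 compared. They included klf2b at 134 CPM against 28.7 (log2 fold 2.22, 2.16 to 2.29). The pair copy klf2a was lower at 22.5 CPM against 52.9 (log2 fold -1.23). NR4A2 (ENSDARG00000044532), a dopaminergic neuron factor, stood at 1.37 CPM against 23.6 (log2 fold -4.08, -4.49 to -3.75). Zinc finger genes of the ZNF kind, 183 in number, had a median of 0.00.

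Junction and cytoskeleton genes were divided. Classical cadherins and adherens junction genes were 10 higher and 13 lower of 26 compared, with quartiles from -2.56 to 1.59. The junction plaque gene JUP (ENSDARG00000070787) stood at 767 CPM against 243 (log2 fold 1.66, 1.63 to 1.68) and the cadherin cdh27 at 204 CPM against 11.1 (log2 fold 4.19, 4.101 to 4.29), while the neuronal cadherins CDH18 (ENSDARG00000102769) and CDH13 stood at 1.35 CPM against 17.3 and 0.442 CPM against 10.6 CPM. Claudins and tight junction genes were 20 higher and 17 lower of 59 compared, with the epidermal cldni at 687 CPM against 283 (log2 fold 1.28, 1.25 to 1.30) and the gut claudin cldn15la at 1.58 CPM against 13.5 (log2 fold -3.07, -3.45 to -2.76). Kinesins and dyneins were 6 higher and 24 lower of 56 compared (median -0.28), with the neuronal motor KIF3C at 5.35 CPM against 40.04 (log2 fold -2.90, -3.09 to -2.72), and tubulins and stathmins 3 higher and 9 lower of 28 compared, with STMN2 of growing axons at 11.2 CPM against 177 (log2 fold -3.97, -4.103 to -3.85). Motile cilia genes had a median of 0.25, -0.12 on total reads, and the dynein heavy chain DNAH5 was at 16.8 CPM against 3.92 (log2 fold 2.09, 1.92 to 2.28). Of solute carriers of the cell surface, the largest list, 82 were higher and 77 lower of 273 compared, a median of 0.32 that stood at -0.10 on total reads. Aquaporins were 4 higher and 2 lower of 10 compared, with the skin glycerol channel AQP3 at 472 CPM against 162 (log2 fold 1.54, 1.51 to 1.57) and aqp9b, whose mammalian relative is a liver glycerol channel, at 1.28 CPM against 62.7 (log2 fold -5.57, -5.997 to -5.24).

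A scan that did not use the lists grouped every gene by the leading letters of its symbol. It gave 206 families of at least 10 compared genes (4760 genes), of which 21 had over 50% of members lower, 8 had over 50% higher and 128 had a median within 0.5 of 0. The opsins (opn) had the lowest median, -3.51, with 9 of 15 lower. The lens crystallins named crygm were lower for 21 of 24. The synaptotagmins (syt) were lower for 17 of 17 (median -2.94). Regulators of G-protein signalling (rgs) were lower for 16 of 23, calmodulin kinases (camk) for 12 of 14 and nicotinic receptor alpha subunits (chrna) for 9 of 11. Other families stood lower as well: the cerebellins (cbln), synapse organizers, were lower for 7 of 10, the nkx factors for 11 of 14, the copines (cpne) for 7 of 10 and the glucuronosyltransferases (ugt) for 11 of 19. The splicing factors srsf were lower for 8 of 13. On the higher side were the adamts proteases, 13 of 17 (median 1.90), the wnt ligands, 11 of 21 (1.44), the finTRIM genes (ftr), 15 of 24 (1.37), the caspases (casp), 8 of 12, the integrin alpha chains (itga), 7 of 10, and the Notch-linked her factors, 6 of 10. Odorant receptors (or) were higher for 9 of 13, at a summed level of only 29.9 CPM against 15.4.

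Zebrafish carry many gene pairs from an ancient genome duplication, named with the letters a and b, and the 2 copies of a pair were set side by side. Of 372 pairs with both copies compared, 35 had both copies higher, 70 had both lower, 142 had a call in a single copy and 30 had the copies on opposite sides, to be read beside 21.1% higher and 24.0% lower over all genes. Shares of that size would place some unrelated genes on opposite sides when paired. The count of 30 is therefore not read as a result about duplicate copies. The tetraspanins cd9a and cd9b stood at 11.8 CPM against 58.8 and at 393 against 85.6. The proton pump accessory genes atp6ap1a and atp6ap1b stood at 5.81 against 93.4 and at 169 against 42.98, so that their sum differed by a log2 ratio of only 0.36. Reads shared by similar copies can be split unevenly by the estimation, and whether that occurred here was not tested.

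Some genes had reads in only 1 of the compared libraries. With no read in control, 20 genes had at least 10 CPM in Dx-IONP, 14 of them with no read in IC either. A count of 0 allows up to 3 reads, which sets a lower bound on the fold. The bound covers counting error only. Reads of a gene can be assigned to a similar copy or another row, and whether that occurred here was not tested. Of the 20, cldn7b had 38.2 CPM, but summed with its pair copy cldn7a it stood at 44.0 CPM against 30.1 in control. The Dx-IONP lanes of HEATR5A ranged from 0 to 25.1 CPM. The Janus kinase gene JAK1 (ENSDARG00000020625), a transducer of cytokine receptors, had 33.4 CPM, at least 1038-fold higher. The adiponectin receptor ADIPOR1 had 35.3 CPM, at least 1095-fold higher, and the propionate enzyme PCCA 21.9 CPM, at least 679.5-fold higher. The membrane protein gene stom had 36.01 CPM and UGP2, which makes the sugar donor for glycogen, 21.7 CPM, at least 1117-fold and 674-fold higher. The largest value was that of si:ch211-113a14.29, which has only a locus name, at 116 CPM, at least 3598-fold higher, and a histone gene, histh1l3, had 55.7 CPM. All of the genes of this paragraph were named after their values were seen. In the other direction 3 genes with at least 10 CPM in control had no read in Dx-IONP. They were the mitochondrial chaperone HSPA9 at 34.3 CPM in control (49.2 in IC), at least 543-fold lower, the glutamate dehydrogenase glud1a at 35.1 CPM, at least 555-fold lower, and BTBD10 at 11.8 CPM, at least 186-fold lower.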

How the data were processed

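Poly(A) RNA of whole larvae was sequenced on a NextSeq 500. The authors deposited 1 table of unnormalized read counts, in whole numbers, with a column for each lane. Salmon 1.6.0, R 4.1.2, DESeq2 1.34.0, FastQC and the genome build GRCz11 are named in the submitters' processing notes, while the sources used here do not give the settings or how genes were summed. Counts from Salmon are estimates, so reads shared by near-identical genes are divided between them by a model. Symbols came with gene IDs from a name table, and several are in human style or shared by more than 1 gene, in which case the ID is given.

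Here the 4 lanes of each library were summed and scaled by TMM factors over all 3 libraries (edgeR 4.0.16 in R 4.3.3), 1.11 for control and 0.857 for Dx-IONP. Log2 folds used a prior count of 2. Genes with at least 1 CPM in either library were kept. Counting intervals were exact Clopper-Pearson intervals of the split of a gene's reads between libraries, computed with scipy 1.17.1. PCR copies are not independent molecules, so intervals and bounds cover counting error only. Control held 84043873 reads and Dx-IONP 55381504, and 3 reads, the floor for a count of 0, stand for 0.0322 and 0.0632 CPM. The counting was tested on simulated counts.

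The members and lists were chosen with earlier results of these data known, and some name patterns were corrected after the table was seen. From each list the text draws on the member with the most reads and the 2 highest and 2 lowest log2 folds among called members of at least 10 CPM with the same direction in all lanes and reads in both libraries, and from all genes on the 15 largest CPM differences in each direction. The alternatives tried were other scalings, filters, prior counts, a 4-fold rule and leaving out each lane.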

Additional observations from a re-analysis of the deposited data

How the results depend on the processing

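With total reads in place of TMM scaling, 2292 genes were higher and 5241 lower, against 3495 and 3987, so 30.4% of the called genes were higher in place of 46.7%. Lists with a median above 0 went from 65 to 26 of 121, and symbol families from 105 to 41 of 206. Among those whose medians changed sign were the large ribosomal subunit (-0.0069), tRNA synthetases (-0.0248), DNA repair (-0.0058), motile cilia (-0.12) and plasma membrane solute carriers (-0.10). With a minimum of 10 CPM, 2519 genes were higher and 2309 lower of 11213, and the median of acetylcholine and monoamine receptors became 0.19. A 4-fold rule gave 1120 higher and 2068 lower genes.

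TMM over the compared libraries (3378 higher, 4049 lower), DESeq2 size factors (3531, 3956), no filter (3914, 4680) and prior counts of 0.5 (3507, 3997) and 5 (3460, 3957) left both counts within 1.5 times. Without each lane in turn the counts were 3467 to 3483 higher and 3964 to 4004 lower, with 63 to 65 list medians and 102 to 109 family medians above 0. Of 516 genes open to naming, 449 were called. Of these 26 lost the call on total reads, 161 at the 4-fold rule and at most 2 without a lane. None changed sign under any of these alternatives. Called genes were at least 2-fold apart and total reads moved each log2 fold by 0.37, so no sign change could occur there. No paired analysis was possible because each condition had 1 library, whose lanes are repeat runs. With 1 library per condition, differences between clutches, pools or library preparations cannot be told apart from the exposure.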
